A study of Drosophila melanogaster with 23 samples.

Results

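Glutathione transferases join glutathione, the main soluble thiol of the cell, to reactive electrophiles such as lipid peroxidation products and insecticides, and some also reduce peroxides. The soluble enzymes of insects fall into delta, epsilon, omega, sigma, theta and zeta classes, written GstD, GstE, GstO, GstS, GstT and GstZ in Drosophila melanogaster. Delta and epsilon are the expanded insect classes linked to detoxification and insecticide resistance, and several of their genes are known targets of CncC, the fly counterpart of the stress-response factor Nrf2. The family was taken as all rows of both deposited count tables whose symbol starts with one of these 6 class names. That rule, which uses no measured value, gave 35 genes of the 17104 in one table and the same 35 of the 17103 in the other: 11 GstD, 14 GstE, 3 GstO, 1 GstS, 4 GstT and 2 GstZ genes.

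The transcripts were measured by bulk RNA-seq of hearts dissected from flies, in 23 libraries of 5 groups. The control strain w1118 was sampled at 1 week of age (n = 4) and at 5 weeks (n = 4), and the control strain attp2 at 1 week (n = 5) and at 5 weeks (n = 5). A group with RNA interference against Lamin C (LamC), a nuclear lamina gene, was sampled at 1 week (n = 5); its strain is given as attp2 with a LamC RNAi, expressed from the promoter of the heart gene Hand. Per its design, the study sought genes that alter with age in w1118, their conservation in attp2, and genes altered by both ageing and LamC RNAi. The 8 w1118 libraries and the other 15 libraries are in separate tables, so strain and table cannot be told apart. The labels are silent on whether replicate libraries stem from separate flies; p-values then reflect only the library-to-library spread, which may be technical.

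Depth was 21.8 to 90.0 M (mega) counts per library, and levels are counts per M counts (CPM) on the scale of each table after normalization by the trimmed mean of M values (TMM). All 7 heart markers examined, among them Hand and tin, were detected in every group, with summed levels of 285 to 727 CPM. Marker transcripts of other cells were present too: oenocyte markers summed to 72047 to 212337 CPM and fat body markers to 16201 to 99022 CPM, so in these bulk samples fewer cells of a type and less RNA per cell cannot be told apart. Gut digestive enzyme markers summed to 11179 CPM in library 3 of attp2 at 1 week, 16083 CPM in library 3 and 799 CPM in library 4 of attp2 at 5 weeks, and 663 CPM in library 3 of LamC RNAi, against 21.4 to 239 CPM in every other library. Calls of family members with age in attp2 and for LamC RNAi are therefore given with and without these 4 libraries. Most other results from those groups, among them those of other gene lists, use all libraries. LamC itself was at 171 ± 33.6 CPM in attp2 at 1 week and 149 ± 42.4 CPM in the RNAi group (SD, n = 5 each), a log2 difference of -0.20 with a 95% interval of -0.63 to 0.23 (edgeR quasi-likelihood test, adjusted p = 0.628). The transcript thus gave no check of the RNAi label, and that group is called the libraries labelled LamC RNAi.

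All 35 genes were placed on the dm6 assembly by the Ensembl annotation. The 11 GstD genes lie within 20.8 kb of chromosome 3R, from 12364776 to 12385624, with GstD10, GstD9 and GstD1 on the minus strand and the other 8 on the plus strand. The genes GstE1 to GstE10 lie within 13.2 kb of chromosome 2R, from 18396638 to 18409835, and GstE11 to GstE14 are dispersed on the same arm. The 3 GstO genes are neighbours on 3L from 8518885 to 8524866, GstT1 and GstT2 are neighbours on 2R from 9605988 to 9608350, and GstZ1 and GstZ2 are neighbours on 3R from 9455517 to 9460652. GstT3 and GstT4 are on X, and GstS1 is on 2R from 17093246 to 17099501. Members of a cluster may be similar in sequence, which was not compared here, so the counting may have split reads between them. GstE1 overlaps GstE10 by 127 bases on the opposite strand, GstE9 overlaps imd by 40, GstE12 overlaps CG3894 by 33, GstE13 overlaps CG18659 by 6, GstO2 overlaps se by 61 and GstT2 overlaps CG12926 by 223. The counting had a strand setting not given in the sources used here, so reads in these overlaps cannot be assigned.

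The family took a mean of 0.311% of all counts in w1118 at 1 week, 0.373% in w1118 at 5 weeks, 0.219% in attp2 at 1 week and 0.314% in attp2 at 5 weeks. Libraries labelled LamC RNAi gave 0.219%. One delta gene dominated. GstD1, an enzyme known for dehydrochlorinating DDT, had the highest level per length, 991 CPM per kb of exon averaged over all libraries. It made up 33.8% ± 3.68 of the family's counts in w1118 at 1 week (SD, n = 4) and 23.3% ± 3.84 in attp2 at 1 week (SD, n = 5). The next levels per length were 308 CPM per kb for GstE9, 251 for GstE3, 237 for GstE12, 205 for GstT4, 199 for GstE1, 153 for GstO3 and 75.8 for GstS1, the sole sigma member. In the zeta class, whose enzymes isomerize maleylacetoacetate in tyrosine breakdown, GstZ1 stood at 12.4 CPM per kb. At the other end, 7 of 35 members were below 1 CPM per kb: GstD7, GstE10, GstZ2, GstD8, GstE4, GstE14 and GstD11. GstE14, known as the ecdysone-synthesis gene noppera-bo of the prothoracic gland, ranged from 0 to 0.561 CPM over the 23 libraries. GstD11 had no count in any library of w1118 at 1 week or of LamC RNAi. A count of 0 allows up to 3 counts, which is 0.0333 CPM in the deepest of the 23 libraries and 0.138 CPM in the shallowest. Those 2 libraries are in other groups, so the floor for GstD11 lies between these values.

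Summed by class, delta and epsilon transcripts together held most of the family in every group. In w1118 the GstD sum averaged 1200.5 ± 122 CPM in young and 1567 ± 444 CPM in old hearts (SD, n = 4). In attp2 it averaged 611 ± 132 and 939 ± 173 CPM (SD, n = 5). The GstE sums were 1231 ± 363, 1259.6 ± 197, 937 ± 75.8 and 1141 ± 107 CPM in the same order. In attp2 the GstD sums of all 5 libraries at 5 weeks, 765 to 1159 CPM, lay above those at 1 week, 468 to 763 CPM. The GstS1 level ranged between 106 and 315 CPM in the group means and the GstT sum between 278 and 449.8 CPM. Family sums in attp2 were 2164 to 2503 CPM at 1 week and 2789.7 to 3170.1 CPM at 5 weeks, which did not overlap, whereas the w1118 sums, 2689 to 3770.4 and 3298 to 4394 CPM, did. The libraries labelled LamC RNAi had family sums of 1906 to 2383 CPM, overlapping those of attp2 at 1 week.

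**Figure D1:**
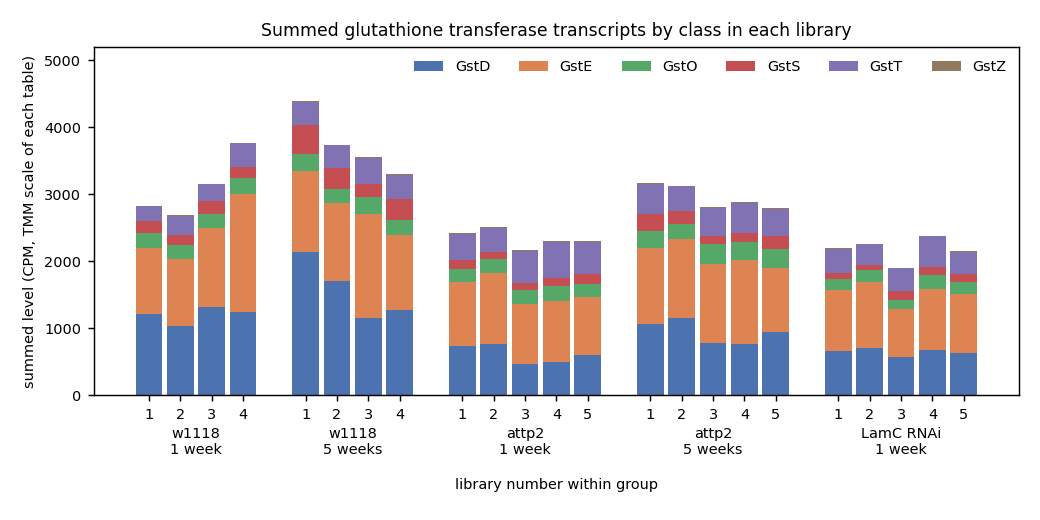
Stacked bars of the summed level of each glutathione transferase class (CPM, TMM scale of each table) in each of the 23 libraries, ordered by group. GstD and GstE fill most of each bar; family sums in attp2 are 2164 to 2503 CPM at 1 week and 2789.7 to 3170.1 CPM at 5 weeks.

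With age in w1118, part of the delta cluster rose together with 1 member each of the epsilon, omega and sigma classes. GstD4, GstD5, GstD6, GstE1, GstO1 and GstS1 were higher at 5 weeks and GstD2 was lower, 7 of the 32 members tested; GstD8, GstD11 and GstE14 had too few counts to test. Over all genes tested 8.91% were called (5.21% higher and 3.7% lower). The median log2 fold change was 0.16 over the members tested and 0.01 over all genes tested. By class, 4 of 9 GstD, 1 of 13 GstE, 1 of 3 GstO, 1 of 1 GstS, 0 of 4 GstT and 0 of 2 GstZ members were called. In all 7 called members the 2 ages did not overlap; over all genes tested 17.3% did not overlap (9.34% higher and 7.91% lower).

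GstD5, at 12375733 to 12376572 in the middle of the delta cluster, changed most. Its level was 6.31, 6.08, 6.85 and 16.8 CPM in the libraries at 1 week and 179, 96.9, 36.1 and 82.9 CPM at 5 weeks. The lowest old library was above the highest young one; library 4 stood apart at 1 week, and the old libraries were spread widely. The log2 fold change was 3.47 ± 0.50 (SE; edgeR, adjusted p = 0.0039), and it passed the threshold whichever library was left out. GstD6, its neighbour, went from 0.323, 0.541, 0.132 and 1.44 CPM to 8.78, 5.67, 1.73 and 4.14 CPM, a log2 fold change of 3.11 ± 0.69 (adjusted p = 0.0228). GstD4, the neighbour on the other side, was at 0.574, 0.584, 0.568 and 0.832 CPM at 1 week and 2.91, 3.24, 1.38 and 1.12 CPM at 5 weeks, a log2 fold change of 1.76 ± 0.42 (adjusted p = 0.0295). GstD4 and GstD6 were low genes, with as few as 26 and 7 counts in a young library, while GstD5 had 281 or more. GstD2, which precedes them in the cluster, moved the other way: 29.8, 37.2, 77.9 and 52.0 CPM at 1 week and 24.1, 29.4, 21.9 and 14.8 CPM at 5 weeks, a log2 fold change of -1.13 ± 0.30 (adjusted p = 0.0419). Every old library was below every young one, but the closest pair, 29.4 and 29.8 CPM, nearly met. GstD3, between GstD2 and GstD4, had a log2 fold change of 1.01 ± 0.31 that missed the threshold (adjusted p = 0.0699; DESeq2 0.0135).

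Outside the delta class, GstS1, an enzyme known to conjugate the lipid peroxidation product 4-hydroxynonenal, was at 184, 149.6, 196 and 152 CPM at 1 week and 433, 306, 204 and 316 CPM at 5 weeks. The log2 fold change was 0.88 ± 0.21 (adjusted p = 0.0278). GstO1, an omega enzyme at 8523742 to 8524866 on 3L, was at 4.84, 5.21, 3.07 and 4.8 CPM at 1 week and 9.69, 9.79, 5.83 and 8.7 CPM at 5 weeks (log2 fold change 0.92 ± 0.22, adjusted p = 0.0287). Its neighbours GstO2 and GstO3 had log2 fold changes of 0.09 and 0.04. GstE1, the second gene of the epsilon cluster after GstE10, was at 175, 138, 173 and 156 CPM at 1 week and 269, 227, 293 and 200.5 CPM at 5 weeks (log2 fold change 0.62 ± 0.15, adjusted p = 0.0274). Each of these genes had all 4 old libraries above all 4 young ones. GstD1 had a log2 fold change of 0.36 ± 0.18 (adjusted p = 0.239): its old libraries, 1781, 1449, 1015 and 1109 CPM, overlapped the young ones, 1060.5, 898, 1117 and 1089 CPM.

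The calls other than that of GstD5 were lost in some fits that left out 1 library. Among all genes tested, the fits without 1 library called 174 to 578 higher, against 502 with all libraries. GstD6 lost its call without library 1 or 2 of either age (adjusted p 0.0542 to 0.0796), and GstD4 without library 1, 2 or 3 at 1 week or 1 or 2 at 5 weeks (0.0792 to 0.0936). GstS1 lost it without library 1, 2 or 3 at 1 week or 1 or 2 at 5 weeks (0.0512 to 0.100), GstE1 without library 1, 2 or 3 of either age (0.0503 to 0.102), GstO1 without library 1, 2 or 3 at 1 week or 1, 2 or 4 at 5 weeks (0.0528 to 0.0824), and GstD2 in every case but that of library 1 at 1 week (0.0556 to 0.0940). Heat shock transcripts, which can rise with dissection stress, summed over 11 genes to 784 to 1348 CPM at 1 week and 1185 to 1796 CPM at 5 weeks, with Hsp22, Hsp70Aa and Hsp70Ab at 0 in every library. With their log2 sum as a covariate, none of the 6 higher calls held, while every fold change kept its sign: the log2 fold changes were 2.96 for GstD5 (adjusted p = 0.0503), 2.51 for GstD6 (0.187), 1.27 for GstD4 (0.284), 0.64 for GstE1 (0.162), 0.90 for GstO1 (0.170) and 0.79 for GstS1 (0.194). GstD2 stayed lower at -1.61 (adjusted p = 0.0324). Of the 9631 genes tested, that fit called 101 higher and 65 lower, against 502 and 356 without the covariate. All 8 haemocyte markers were found, none at 0 in a whole group, and they summed to 2489 to 3006 CPM at 1 week and 724 to 1237 CPM at 5 weeks. Gut markers summed to 59.7 to 74.3 CPM at 1 week and 75.9 to 239 CPM at 5 weeks, which did not overlap. Of 7 gut markers tested, 1 was called higher at 5 weeks and 1 lower. Of 7 heart markers 2 were called lower at 5 weeks and 0 higher, and of 4 oenocyte markers 0 were called by edgeR or DESeq2, with 1 at an unadjusted p under 0.05. The part of these cell types in the results was not tested.

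**Figure D2:**
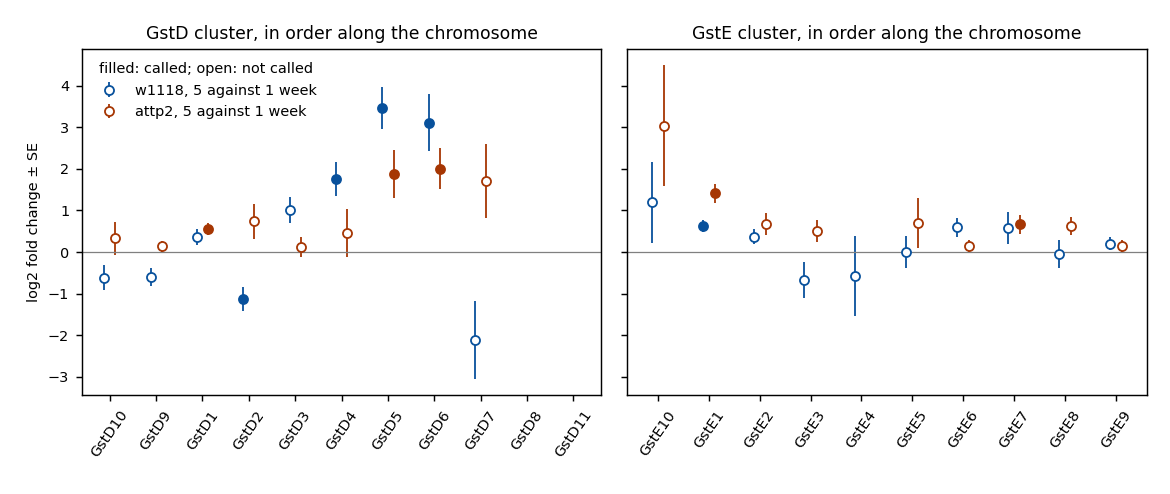
Log2 fold change with age ± SE of each tested member, by strain, in the order of the genes along the GstD and GstE clusters; filled points passed the threshold and open points did not. In w1118 the genes GstD4, GstD5 and GstD6 stand at 1.76, 3.47 and 3.11, between GstD2 at -1.13 and GstD7 at -2.12, which did not pass.

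Read along the delta cluster in w1118, the log2 fold changes were -0.62 for GstD10, -0.60 for GstD9, 0.36 for GstD1, -1.13 for GstD2, 1.01 for GstD3, 1.76 for GstD4, 3.47 for GstD5, 3.11 for GstD6 and -2.12 for GstD7. The 3 genes that passed the threshold upward are adjacent on the plus strand. In attp2 the same 9 genes had log2 fold changes of 0.13 to 2.00, all positive, and GstD1, GstD5 and GstD6 passed the threshold.

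In attp2, genes of the delta, epsilon, omega and theta classes rose with age. GstD1, GstD5, GstD6, GstE1, GstE7, GstE11, GstO3 and GstT1 were higher at 5 weeks and GstE12 was lower, 9 of the 31 members tested, where 20.1% of all genes tested were called (9.6% higher and 10.5% lower). GstD8, GstD11, GstE4 and GstE14 had too few counts to test. The median log2 fold change was 0.51 over the members and 0.03 over all genes. By class, 3 of 9 GstD, 4 of 12 GstE, 1 of 3 GstO, 0 of 1 GstS, 1 of 4 GstT and 0 of 2 GstZ members were called. The 2 ages did not overlap in 6 members, all higher at 5 weeks (GstD1, GstE1, GstE11, GstO3, GstT1 and GstZ1), against 17.1% of all genes (8.42% higher and 8.7% lower).

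GstE1 was at 122, 114, 56.6, 66.7 and 91.6 CPM at 1 week and 264, 283, 206, 251 and 193 CPM at 5 weeks. Every old library exceeded every young one, and the log2 fold change was 1.41 ± 0.23 (edgeR, adjusted p = 7.7e-04). GstT1, a theta enzyme, was at 33.4, 35.3, 41.2, 40.6 and 41.0 CPM at 1 week and 60.0, 45.4, 61.9, 65.2 and 61.6 CPM at 5 weeks. Its groups were narrow and did not overlap, with a log2 fold change of 0.62 ± 0.10 (adjusted p = 6.1e-04). Its neighbour GstT2 had a log2 fold change of -0.10 ± 0.11, and GstT3 and GstT4 had -0.03 and -0.25, none of which passed.

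GstD1 was at 647, 686, 432, 434 and 542 CPM at 1 week and 927, 930.1, 702, 693 and 780.5 CPM at 5 weeks (log2 fold change 0.56 ± 0.14, adjusted p = 0.0135). The lowest old library, 693 CPM, lay just above the highest young one, 686 CPM. GstO3, an omega enzyme, was at 113, 125, 129, 126 and 107 CPM at 1 week and 168, 147, 221, 207 and 206 CPM at 5 weeks (log2 fold change 0.66 ± 0.14, adjusted p = 0.0042). GstE11 was at 12.7, 13.6, 15.4, 13.4 and 15.9 CPM at 1 week and 21.0, 20.0, 36.2, 31.9 and 19.9 CPM at 5 weeks (log2 fold change 0.86 ± 0.19, adjusted p = 0.0059). The 2 highest of these GstE11 values are from libraries 3 and 4, which hold gut transcripts, and without the 4 such libraries its log2 fold change was 0.54 (adjusted p = 0.0430).

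Of the adjacent delta genes called higher in w1118, GstD5 and GstD6 were called higher in attp2 as well, from groups that overlapped. GstD4 was not called in attp2 (log2 fold change 0.46, edgeR, adjusted p = 0.636). GstD5 was at 36.5, 26.6, 3.02, 28.4 and 18.7 CPM at 1 week and 88.2, 160.0, 28.1, 31.2 and 108 CPM at 5 weeks (log2 fold change 1.88 ± 0.57, adjusted p = 0.0320). The lowest value at each age was in library 3, which had the most gut transcripts of its group. GstD6 was at 0.556, 0.479, 0.226, 0.186 and 0.361 CPM at 1 week and 2.46, 2.21, 0.56, 0.391 and 1.69 CPM at 5 weeks (log2 fold change 2.00 ± 0.49, adjusted p = 0.0113), from as few as 8 counts in a library. GstE7 was at 19.5, 20.0, 12.6, 9.23 and 14.5 CPM at 1 week and 17.5, 33.1, 25.1, 25.4 and 19.2 CPM at 5 weeks (log2 fold change 0.67 ± 0.22, adjusted p = 0.0483). GstE12, an abundant epsilon enzyme, was at 369, 339, 371, 365 and 311 CPM at 1 week and 271, 326, 285, 307 and 270.1 CPM at 5 weeks. The old libraries were mostly below the young ones, with 1 overlap, and the log2 fold change was -0.27 ± 0.07 (adjusted p = 0.0225).

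GstD1, GstD6, GstE1, GstE11, GstO3 and GstT1 passed the threshold in all 10 fits that left out 1 attp2 library. GstD5 lost its call without library 2, 4 or 5 at 1 week or 1, 2 or 5 at 5 weeks (adjusted p 0.0543 to 0.0766), GstE7 without library 3, 4 or 5 at 1 week or 2, 3, 4 or 5 at 5 weeks (0.0527 to 0.114), and GstE12 without library 1, 3 or 4 at 1 week or 1, 3 or 5 at 5 weeks (0.0512 to 0.0608). Without the 4 libraries with gut transcripts, GstD5 (2.11, adjusted p = 0.0011), GstD6 (2.40, 0.0025), GstE1 (1.32, 0.0038), GstD1 (0.61, 0.0176), GstO3 (0.57, 0.0149) and GstT1 (0.57, 0.0099) were still higher; each pair gives the log2 fold change and the adjusted p. GstE7 (0.56, adjusted p = 0.216) and GstE12 (-0.26, adjusted p = 0.127) no longer passed. GstE2 (0.77, 0.0429) and GstS1 (0.72, 0.0322) passed in that fit, though not with all libraries (0.68 and 0.51, adjusted p 0.0900 and 0.121). In the 2 libraries with the most gut transcripts, library 3 of each age, GstD8 was at 1.23 and 2.90 CPM, against at most 0.191 CPM in any other library. GstE5 was at 2.52 and 4.81 CPM in those 2 libraries and at most 1.41 CPM elsewhere. Haemocyte markers summed to 2566 to 3517 CPM at 1 week and 527 to 798 CPM at 5 weeks. Oenocyte markers summed to 118645 to 212337 CPM at 1 week and 125871 to 140206 CPM at 5 weeks, with 2 of 4 called lower, and 2 of 7 heart markers were called lower. The part of these cell types in the results was not tested.

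**Figure D3:**
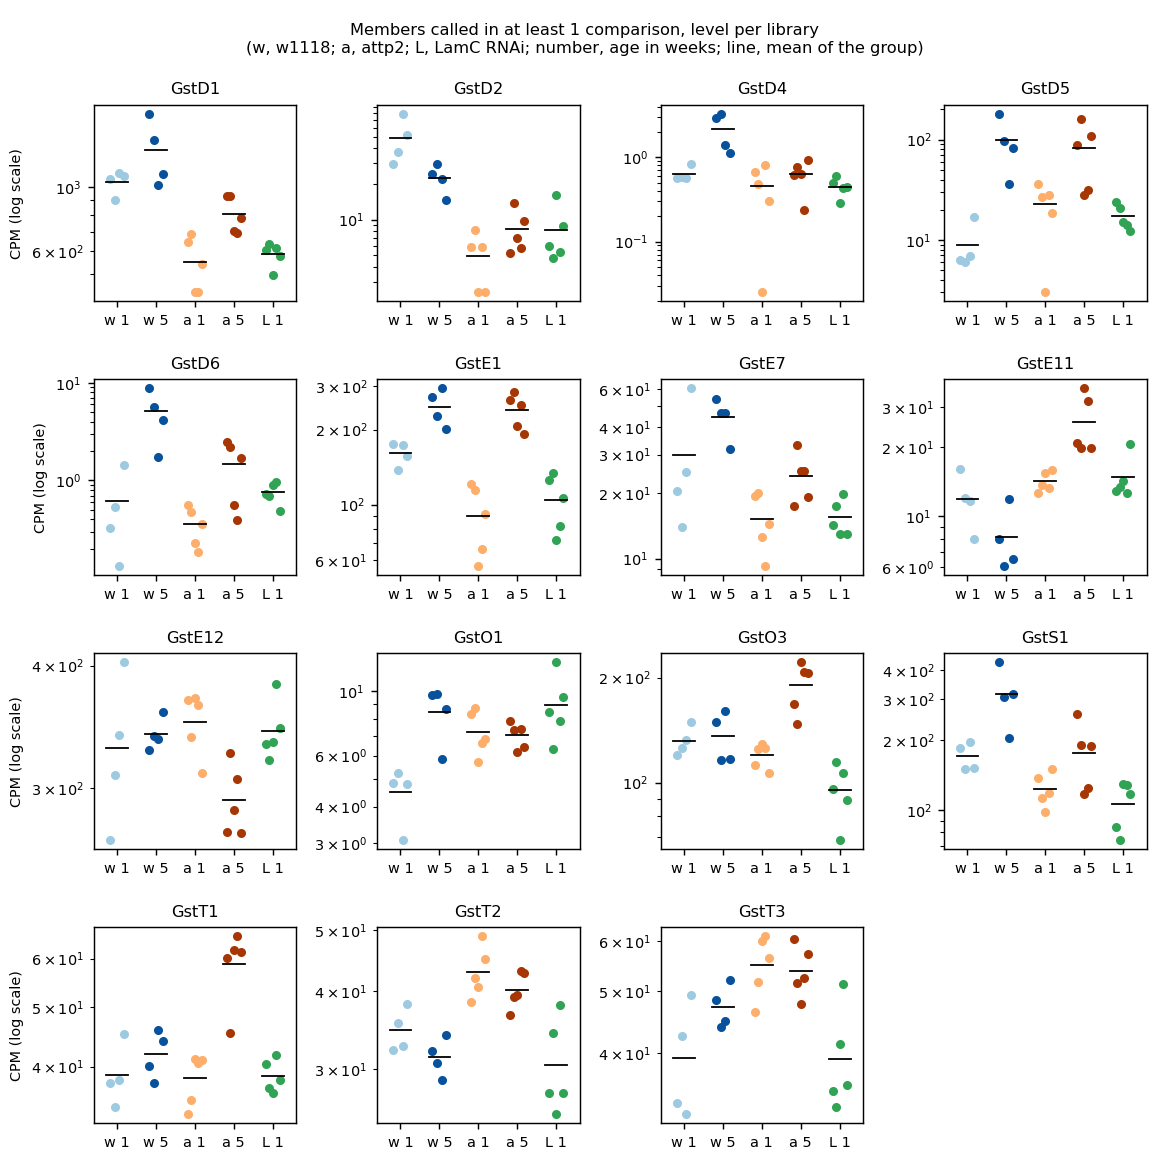
Level of each member that passed the threshold in at least 1 comparison (CPM, log scale), 1 point per library, by group, with a line at the group mean. GstD5 lies between 6.08 and 16.8 CPM in w1118 at 1 week and between 36.1 and 179 CPM at 5 weeks, and GstT1 between 33.4 and 41.2 CPM in attp2 at 1 week and between 45.4 and 65.2 CPM at 5 weeks.

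GstD5, GstD6 and GstE1 were called higher with age in both strains, 50.0% of the 6 members called higher in w1118 and 37.5% of the 8 in attp2; the strains share no library. The overlap of the strains over all genes is not given here, so these shares cannot be called particular to the family. No member was called in opposite directions. A strain-by-age term fitted to the 18 control libraries tested whether the age effects themselves differ. None of the 32 members tested passed in the main edgeR fit, where 0.761% of all genes tested were called (0.481% higher and 0.279% lower). There were 12 members with an unadjusted p under 0.05, for which no share of all genes is given here. DESeq2 called 5 members, and of the 10387 genes tested it called 243 higher and 189 lower. These 5 were GstO1 with the higher log2 fold change in w1118, and GstD2, GstE11, GstO3 and GstT1 with the higher one in attp2. GstE11 came closest in the main edgeR fit, with a difference of -1.43 ± 0.33 on the log2 scale (w1118 minus attp2, adjusted p = 0.0592). It was -1.12 without the 3 control libraries with gut transcripts (adjusted p = 0.109). With the replicate number as a block, GstE11 (-1.40, adjusted p = 0.0408) and GstO1 (0.93, adjusted p = 0.0229) passed. For GstD5 the difference was 1.55 with a 95% interval of -0.33 to 3.44, and for GstE1 it was -0.81 with an interval of -1.41 to -0.20 (adjusted p = 0.179). The GstD1 difference was -0.22 with an interval of -0.75 to 0.31 (adjusted p = 0.728). The GstT1 difference was -0.53 with an interval of -0.87 to -0.20 (adjusted p = 0.124).

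In the libraries labelled LamC RNAi, 2 theta members were lower than in attp2 at 1 week and no member was higher by edgeR or DESeq2. These 2 of the 31 members tested stand beside 2.41% of all genes tested (0.866% higher and 1.54% lower), and 7 members had an unadjusted p under 0.05. DESeq2 called 3 members lower, and of the 10044 genes tested it called 293 higher and 399 lower. The median log2 fold change was 0.01 over the members and 0.03 over all genes. GstT2 was at 38.3, 41.9, 40.6, 48.9 and 45.0 CPM in attp2 and 27.4, 34.2, 25.4, 37.9 and 27.5 CPM in the labelled libraries. The groups did not overlap, as in 5.0% of all genes (2.17% higher and 2.83% lower), though the values 37.9 and 38.3 CPM were close. The log2 fold change was -0.49 ± 0.11 (adjusted p = 0.0271). GstT3, on X from 20467455 to 20469796, was at 46.5, 51.7, 59.9, 61.0 and 56.3 CPM in attp2 and 34.9, 33.0, 41.4, 51.3 and 35.6 CPM in the labelled libraries, overlapping by library 4 of the latter (log2 fold change -0.49 ± 0.12, adjusted p = 0.0472). GstT4, the theta member with the highest level per length, had a log2 fold change of -0.33 ± 0.15 that missed the threshold (adjusted p = 0.258), and GstT1 had 0.01 with a 95% interval of -0.19 to 0.22. CG12926, which overlaps GstT2 on the opposite strand, was at 4.38 CPM in attp2 and 2.64 CPM in the labelled libraries.

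Both calls were close to the threshold. GstT2 lost its call without library 2, 3, 4 or 5 of attp2 or library 1, 3 or 5 of the labelled group (adjusted p 0.0579 to 0.0796), and GstT3 without library 2, 3, 4 or 5 of attp2 or library 1, 2, 3 or 5 of the labelled group (0.0693 to 0.125). Without the 4 libraries with gut transcripts the log2 fold changes were -0.45 for GstT2 (adjusted p = 0.139) and -0.48 for GstT3 (adjusted p = 0.188). That fit called 37 of 10118 genes lower, against 155 of 10044 with all libraries. GstE13, an epsilon enzyme on 2R from 9122125 to 9123309, had a log2 fold change of -0.42 ± 0.11 that missed the threshold (adjusted p = 0.0701). GstE13 passed in 3 of 19 alternative fits. These were the replicate number as a block (-0.42, adjusted p = 0.0404), DESeq2 (-0.42, adjusted p = 0.0184) and the fit without library 4 of the labelled group (adjusted p = 0.0167). It missed without the 4 libraries with gut transcripts (-0.34, adjusted p = 0.305) and with the heat shock covariate (-0.40, adjusted p = 0.103). Its level was 22.9, 26.1, 30.2, 28.1 and 25.4 CPM in attp2 and 19.0, 21.0, 18.3, 25.3 and 15.8 CPM in the labelled libraries. Haemocyte markers summed to 3249 to 5273 CPM in the labelled libraries against 2566 to 3517 CPM in attp2. Oenocyte markers summed to 80503 to 173174 CPM against 118645 to 212337 CPM; none of 4 was called by edgeR, 3 had an unadjusted p under 0.05 and DESeq2 called 1, FASN2, lower. Of 7 heart markers 1 was called lower. The part of these cell types was not tested. Of the 9 members called with age in attp2, none was called here; both comparisons use the same 5 libraries of attp2 at 1 week. GstE1 had a log2 fold change of 0.21 with a 95% interval of -0.27 to 0.68, and GstD5 of -0.39 with an interval of -1.58 to 0.79.

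**Figure D4:**
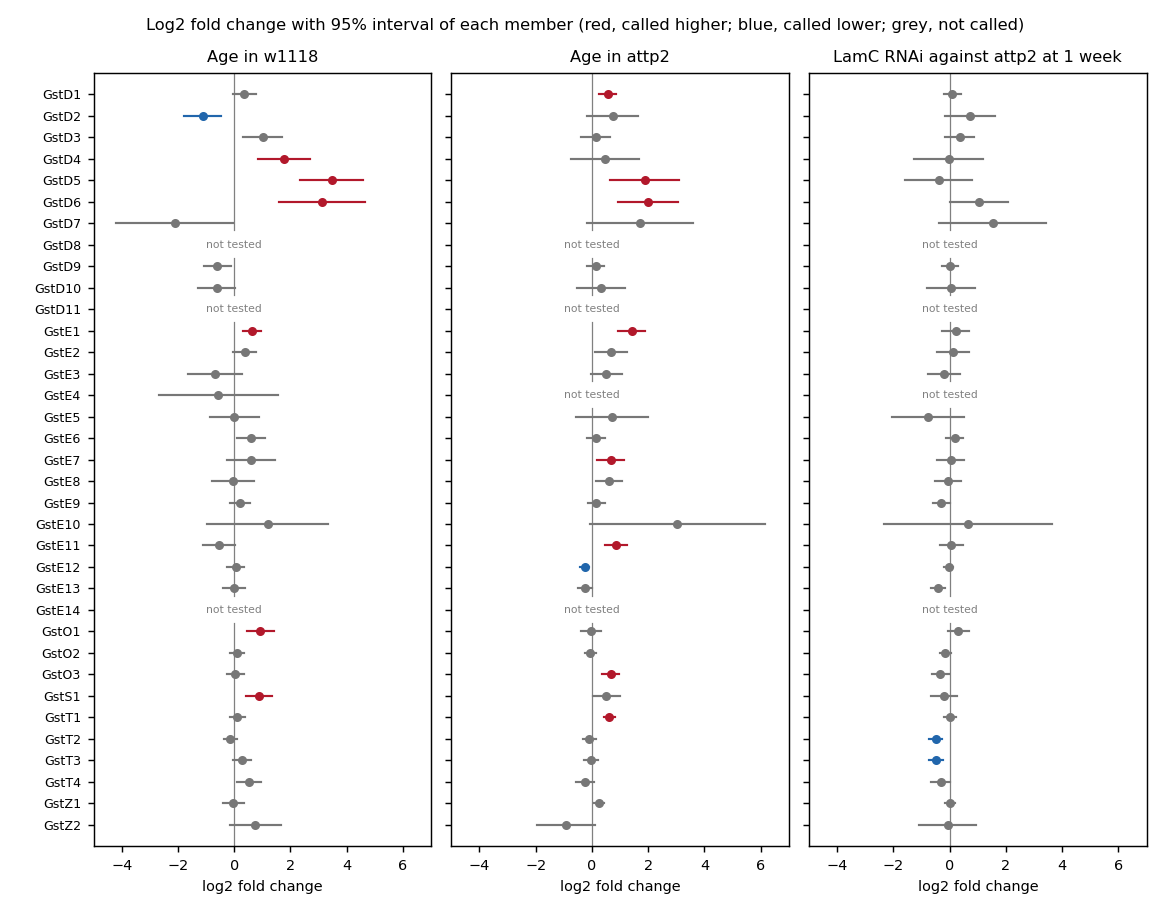
Log2 fold change with its 95% interval for each tested member (rows), for age in w1118, age in attp2 and LamC RNAi (panels). Red was called higher, blue called lower and grey was not called. Called members number 7 for age in w1118, 9 for age in attp2 and 2 for LamC RNAi.

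The members with the highest level per length in the epsilon, theta and zeta classes did not pass the threshold with age in either strain. GstE9 in w1118 was at 189, 205, 214 and 284 CPM when young and 237, 238, 311 and 240.2 CPM when old (log2 fold change 0.20, adjusted p = 0.454), and its log2 fold change in attp2 was 0.14 (adjusted p = 0.536). GstT4 had 0.52 ± 0.19 in w1118 (adjusted p = 0.115) and -0.25 ± 0.15 in attp2 (adjusted p = 0.277). GstZ1 was at 11.9, 11.3, 11.8, 13.0 and 12.5 CPM in attp2 at 1 week and 13.9, 13.4, 13.4, 16.3 and 14.6 CPM at 5 weeks; the ages did not overlap, but the log2 fold change of 0.24 ± 0.08 missed the threshold (adjusted p = 0.0527; DESeq2 0.0269, replicate block 0.0198). Without the 4 libraries with gut transcripts the GstZ1 log2 fold change was 0.19 (edgeR, adjusted p = 0.206). In w1118 the GstZ1 log2 fold change was -0.03 ± 0.17 (adjusted p = 0.940).

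Genes that work with the transferases were examined as 5 lists. Their counts of edgeR calls stand beside 8.91% of all genes called for age in w1118, 20.1% for age in attp2, 2.41% for LamC RNAi and 0.761% for the interaction. DESeq2 called 844 genes higher and 732 lower of 9631 in w1118, and 1195 and 1351 of 10044 in attp2. It called 293 and 399 of 10044 for LamC RNAi, and 243 and 189 of 10387 for the interaction. Of the glutathione synthesis and recycling genes, 7 were tested. Ggt-1, a gamma-glutamyl transpeptidase that breaks down glutathione, rose in w1118 (8.56 to 25.0 CPM, log2 fold change 1.54 ± 0.19, adjusted p = 0.0016), and Zw, the glucose-6-phosphate dehydrogenase that supplies NADPH, fell in attp2 (191 to 121 CPM, -0.66 ± 0.19, adjusted p = 0.0237). By edgeR none was called in the LamC comparison or the interaction, where 2 genes each had an unadjusted p under 0.05 and DESeq2 called 1 each (Pgd and Ggt-1). Of 14 CncC pathway and antioxidant genes tested, 3 peroxiredoxins rose in w1118, Prx2540-1 by a log2 fold change of 1.48, Prx2540-2 by 1.18 and Jafrac1 by 0.98, and Keap1, the inhibitor of CncC, fell by 0.83 on the log2 scale (adjusted p = 0.0146). In attp2, Jafrac1 rose by 0.46 and Sod2, the mitochondrial superoxide dismutase, fell by 0.48 on the log2 scale. The Keap1 age effect differed between the strains by -0.96 on the log2 scale (adjusted p = 0.0289). Sod2 was the sole gene of that list called in the LamC comparison (-0.30, adjusted p = 0.0375). The median log2 fold change of the list was 0.05 in w1118, 0.09 in attp2 and -0.25 in the LamC comparison, against 0.01, 0.03 and 0.03 over all genes.

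Cytochromes P450 of the families that oxidize foreign compounds, 36 tested in w1118 and 37 in attp2, had 9 called higher and 2 lower with age in w1118, and 7 higher and 3 lower in attp2. The largest changes in w1118 were those of Cyp6a16 (4.21), Cyp6a8 (2.96), Cyp9h1 (1.59) and Cyp6w1 (1.49), and in attp2 those of Cyp6a8 (2.18), Cyp6g2 (1.09), Cyp28d2 (-0.74) and Cyp9b1 (0.73), all log2 fold changes. In the LamC comparison Cyp6a9 was lower (-1.69 ± 0.09, adjusted p = 2.2e-07), Cyp6a23 was lower (-1.36) and Cyp6a17 higher (0.88), and Cyp6a22 was the sole P450 whose age effect differed between strains (0.97, adjusted p = 0.0370). Cyp6a genes may also be similar in sequence, which was not compared here, and their counts carry the same uncertainty as those of the GstD cluster. Of the UDP-glycosyltransferases and conjugate exporters, 0 of 14 tested were called in w1118 by edgeR or DESeq2 (3 had an unadjusted p under 0.05) and 2 of 15 in attp2: Ugt36Ba was higher (3.52 ± 0.84, adjusted p = 0.0097) and Ugt58Fa lower (-0.32, adjusted p = 0.0487). No gene of that list was called by either tool in the LamC comparison or the interaction, with 0 and 2 at an unadjusted p under 0.05. Of 5 other genes with a glutathione transferase fold or activity (se, gfzf, Mgstl, Gdap1 and fax), none was called in any comparison by edgeR; 1 had an unadjusted p under 0.05 with age in each strain, 3 in the LamC comparison and 0 in the interaction, and DESeq2 called fax in w1118 and Mgstl in the LamC comparison.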

How the data were processed

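The authors deposited raw counts per gene symbol for 2 sets of libraries, 8 of w1118 and 15 of attp2 and LamC RNAi, with a second pair of tables on a log2 scale that served here only to check those counts. Per the labels' protocols, hearts were frozen in Quizol, RNA was taken with a miRNeasy kit, and the library kit was TruSeq Stranded mRNA. The submitters' processing notes name STAR, cutadapt, DESeq2 and the build dm6; versions, read counter, strand setting and annotation were all not given in the sources used here. All columns were mapped to samples by name.

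Tests were edgeR 4.0.16 quasi-likelihood tests in R 4.3.3, two-sided, on the deposited counts, with filterByExpr, TMM scaling and Benjamini-Hochberg adjustment over all genes tested, called at 0.05. Fits covered the 8 w1118 libraries (9631 genes), the 15 others together (10044 genes), and the interaction over 18 control libraries joined by symbol (10387 genes). SE is the log2 fold change over the root of F, and every adjusted p without another tool named is from edgeR. DESeq2 1.42.0 gave the Wald test and the size factors used among the alternatives, and all alternatives but that Wald test were edgeR fits. Positions and exon lengths came from the Ensembl BDGP6.54 annotation by symbol. Groups, rules and tests followed the labels; named members are those called in any comparison and the highest per length in each class. The family, its members and all lists were chosen with earlier results of these data known. Libraries of one group differed by a chi-square per gene of at least 58.9, so none was a copy. In the LamC comparison the deviations of same-numbered libraries had correlations of 0.148 to 0.475, but not every library correlated best with its own number. Pairing by number was therefore not established, and the main test is unpaired. The blocked value is given where it changes a call. Intervals of log2 fold changes were built from the SE of the edgeR fits. Like the p-values, they reflect the library-to-library spread, which may be technical. Floors for 0 counts cover counting error only.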

Additional observations from a re-analysis of the deposited data

Results flagged for a closer look

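In 5 of 90 tested groups of a named member and condition (5.56%), 1 library lay far from the other libraries of its group; chance gives about 1 in 20. Library 4 of w1118 at 1 week was the highest for GstD4, at 0.832 CPM against 0.584 CPM in the next, and for GstD5, at 16.8 CPM against 6.85 CPM. Library 3 of w1118 at 5 weeks was the highest for GstE9, at 311 CPM against 240.2 CPM. Library 5 of the group labelled LamC RNAi was the highest for GstE11, at 20.6 CPM against 14.3 CPM. Library 2 of attp2 at 5 weeks was the lowest for GstT1, at 45.4 CPM against 60.0 CPM. Causes were not tested.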

How the results depend on the processing

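Over 18 named member results, 304 alternative values held 0 changes of direction, 213 on the same side of the threshold and 91 that no longer passed. The number of members called higher and lower was 6 and 1 for age in w1118, 8 and 1 in attp2, 0 and 2 for LamC RNAi and 0 and 0 for the interaction. Leaving out 1 library at a time gave 1 to 9 higher and 0 to 2 lower in w1118, 6 to 10 and 0 to 2 in attp2, 0 and 0 to 3 for LamC RNAi, and 0 to 1 and 0 to 3 for the interaction. Among all genes tested, those fits called 174 to 578 higher in w1118 (502 in the main fit) and 690 to 985 in attp2 (964). For LamC RNAi they called 56 to 247 lower (155). With heat shock transcripts as a covariate the higher count in w1118 was 0, the lower count for LamC RNAi 1 (GstT2) and that of the interaction 1 (GstD2). Over all genes tested those counts were 101, 141 and 54, against 502, 155 and 29 in the main fits. Without the 3 libraries over 10 times the median of gut transcripts, or the 4 over 5 times (a limit chosen after seeing the data), the lower count was 0 in attp2 and 0 for LamC RNAi. For all genes tested it was 599 or 752 in attp2 and 37 in either LamC RNAi fit, against 1054 and 155 in the main fits. No w1118 library passed either limit. The LamC RNAi lower count was 1 with no filter on low counts and 0 when only the 2 groups were fitted (117 and 72 over all genes tested). For the interaction, DESeq2 gave 1 higher and 4 lower, and a filter of 5 CPM gave 1 lower. Among all genes tested, DESeq2 called 243 higher and 189 lower there, and the 5 CPM filter gave 51 lower. The causes were not tested. With the replicate number as a block, counts were 5 higher and 1 lower in w1118, 11 and 1 in attp2, 0 and 3 for LamC RNAi, and 1 and 1 for the interaction. Over all genes tested they were 509 and 389, 1122 and 1215, 116 and 177, and 106 and 70. In w1118, GstD2 and GstD4 were lost at adjusted p 0.0538 and 0.0670 and GstD9 was gained (0.0416). In attp2, GstE2 (0.0167), GstE8 (0.0070) and GstZ1 (0.0198) were gained. GstE13 was gained for LamC RNAi (0.0404), and GstO1 (0.0229) and GstE11 (0.0408) for the interaction. In w1118 the same-numbered correlations were -0.076 to 0.265 and in attp2 -0.087 to 0.901, so the numbers were not taken to pair those ages. In none of the 3 comparisons, LamC RNAi included, did every library correlate best with its own number. Low counts limit several members, among them GstD4, GstD6, GstD7 and the untested ones.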
